A study of Mus musculus with 50 samples.

Results

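H3K27me1 ChIP-seq regions of wild-type (WT) and *Ezh2* KO mouse embryonic stem cells (ESCs) were compared by width, strength and position over genes. The members are all regions in the deposited lists of these 2 lines on the chromosomes that both lists hold, which are chromosomes 1 to 7, 9 to 19 and X. They number 497050 regions, 179217 in WT and 317833 in *Ezh2* KO, of 5663231 regions and peaks in 28 lists of the whole series. The WT line is E14TG2a, an ESC line grown in serum with LIF and 2 inhibitors (2i). *Ezh2* KO cells are E14TG2a clones from which CRISPR/Cas9 removed the whole *Ezh2* gene, and the labels do not say how many clones the library stands for. They keep *Ezh1*. *Ezh1/2* dKO cells lack both genes, and *Ezh2* Y726D cells carry a catalytically dead *Ezh2* on an *Ezh1* KO background. These last 2 lines gave the background lists for regions called without PRC2 activity. Each line gave 1 H3K27me1 library, so lines could not be tested against each other, and values are descriptions of these libraries. The spread given beside a value is the SD over 19 chromosomes, which share a library and are not replicates. Sequencing depth of the ChIP libraries is not in the lists, so the part it plays in the number and strength of regions was not tested.

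H3K27 methylation is laid down by PRC2, in which EZH2 or its paralog EZH1 is the methyltransferase and EED and SUZ12 are core partners. In ESCs H3K27me3 marks the promoters of silent developmental genes, H3K27me2 is spread over much of the remaining chromatin, and H3K27me1 is known for its presence over the bodies of transcribed genes. Acetylation of the same lysine (H3K27ac) marks active promoters and enhancers and excludes methylation of that residue.

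The RNA libraries match the labels. *Ezh2* had 598 and 546 normalised read counts in the 2 WT libraries and 1.05 and 0.97 in the 2 *Ezh2* KO libraries (limma, adjusted p = 4.7e-05). The difference passed the threshold in 12 of 12 settings tried. Summed counts of 8 ESC markers, among them *Pou5f1*, *Nanog* and *Sox2*, lay between 10081 and 11692 in the 4 libraries. The 9 markers of early lineages summed to 75.1 and 141 in the WT libraries, and the *Ezh2* KO libraries had 50.2 and 70.6, with *Afp* at 0 in all 4. The 4 fibroblast markers measured summed to at most 3.87, with *Lum* at 0 throughout. In such bulk RNA a smaller number of cells of a type and less RNA per cell cannot be told apart.

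Stretches of 4 regions are shown to place the 2 lists on named genes. *Ndc1* and *Bms1* are 2 of the genes whose body was fully inside WT regions and free of *Ezh2* KO regions, and *Trim29* and *Aspg* are the converse. Each stretch holds 200 bases of intron on the forward strand of mm9 (NCBIM37), read from the reference genome, and capitals mark CpG dinucleotides. For the WT regions it is the middle of the longest inner segment of the gene with no exon in that window, and for the *Ezh2* KO regions, which held no inner segment, the middle of the strongest region.
Ndc1, WT region, chr4:107055402-107055601: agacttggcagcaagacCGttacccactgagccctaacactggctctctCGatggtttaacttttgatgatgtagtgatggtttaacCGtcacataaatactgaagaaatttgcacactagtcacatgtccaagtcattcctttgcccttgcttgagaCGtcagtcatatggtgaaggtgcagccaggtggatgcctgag
Bms1, WT region, chr6:118338368-118338567: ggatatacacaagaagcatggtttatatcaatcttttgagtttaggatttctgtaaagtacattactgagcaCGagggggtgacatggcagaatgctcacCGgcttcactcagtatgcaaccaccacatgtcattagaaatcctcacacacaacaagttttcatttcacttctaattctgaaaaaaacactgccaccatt
Trim29, Ezh2 KO region, chr9:43127781-43127980: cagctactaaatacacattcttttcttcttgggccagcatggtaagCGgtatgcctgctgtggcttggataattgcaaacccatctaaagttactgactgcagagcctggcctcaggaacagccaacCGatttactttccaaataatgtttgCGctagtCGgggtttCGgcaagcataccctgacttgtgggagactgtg
Aspg, Ezh2 KO region, chr12:113351723-113351922: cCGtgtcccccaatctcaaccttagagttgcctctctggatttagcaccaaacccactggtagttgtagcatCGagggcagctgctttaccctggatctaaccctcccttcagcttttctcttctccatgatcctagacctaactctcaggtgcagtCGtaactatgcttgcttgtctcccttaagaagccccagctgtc
The WT stretches had a GC content of 46.5% and 39.5%, with 4 and 2 CpGs. The *Ezh2* KO stretches had 48.0% and 51.0%, with 5 and 3 CpGs. Over all bases inside regions the GC content was 42.8% in WT and 44.9% in *Ezh2* KO, against 41.7% for the 19 chromosomes, and CpGs numbered 8.78, 9.16 and 8.31 per kb. These 4 stretches are examples and not a sample of the regions.

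The *Ezh2* KO list held more H3K27me1 regions than the WT list, and the regions were shorter and weaker at the upper end. The same was true of both background lists. The regions covered 379.7 Mb, or 15.1% of the chromosome length, in WT and 499.1 Mb, or 19.9%, in *Ezh2* KO. The covered share was higher in *Ezh2* KO on 17 of 19 chromosomes, the exceptions being 11 (12.3% and 10.1%) and X (4.74% and 1.05%). WT regions had a median width of 962 bp and those of *Ezh2* KO a median of 946 bp. The difference lay in the wide regions. The N50, the width at which regions of that size or wider hold 50% of the summed width, was 4365 bp for WT, with 2525 bp for *Ezh2* KO, and was lower in *Ezh2* KO on 19 of 19 chromosomes. Regions of at least 10 kb numbered 5620 in WT (3.14% of regions, 95% Wilson interval 3.06 to 3.22) and held 28.6% of the bases. In *Ezh2* KO they numbered 3029 (0.953%, 0.92 to 0.987) and held 8.78%. Regions of at least 50 kb numbered 145 in WT and 0 in *Ezh2* KO. Intervals here and below cover counting error only.

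Region strength is the mean −log10 p over a region as the peak caller wrote it, and its minimum was 1.01 in both lists, which is a permissive threshold. Its median was 1.30 in WT and 1.26 in *Ezh2* KO, a difference of −0.044, and it was lower in *Ezh2* KO on 19 of 19 chromosomes. The upper tails stood further apart. A strength of at least 2 was reached by 27519 WT regions (15.4%, 15.2 to 15.5) and by 8293 *Ezh2* KO regions (2.61%, 2.55 to 2.67). Inner segments, the narrower stretches that passed the stricter threshold of the caller, were present in 9822 WT regions (5.48%, 5.38 to 5.59) and 212 *Ezh2* KO regions (0.0667%, 0.0583 to 0.0763). The caller's mean −log10 q over a region reached the level of q = 5% in 5011 WT regions and 3 *Ezh2* KO regions. Among bases in regions with a strength of at least 2, the comparison of covered length turned around, with 171.6 Mb in WT and 14.9 Mb in *Ezh2* KO. With only the 179217 strongest regions of each list, the median strength was 1.43 in *Ezh2* KO and 1.30 in WT, so the direction of the median depends on how many regions a list holds.

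**Figure D1:**
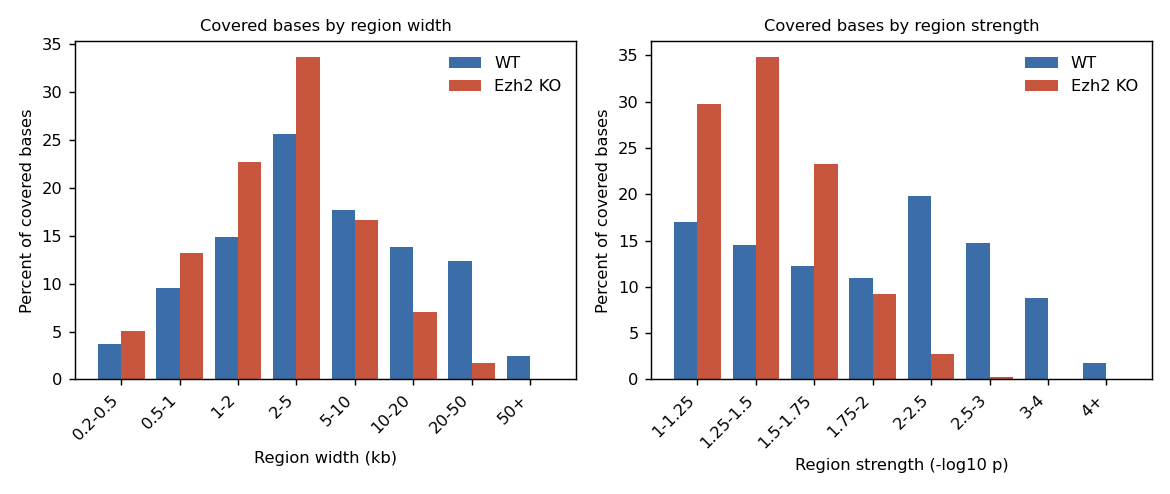
Percent of the bases covered by H3K27me1 regions (y axis) in bins of region width in kb (left) and of region strength in −log10 p (right), for WT (blue) and *Ezh2* KO (red), 1 library each. Regions of 10 kb and wider hold 28.6% of the WT bases and 8.78% of the *Ezh2* KO bases, and nearly all *Ezh2* KO bases lie below a strength of 2.

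Wider WT regions were also stronger. The median strength went from 1.18 for WT regions of 0.2 to 0.5 kb to 2.07 for those of 5 to 10 kb and to 2.64 for those of 20 to 50 kb. In *Ezh2* KO the same bins had 1.197, 1.52 and 1.76. The strongest regions were not the widest. The median width was 3262 bp for WT regions of strength 4 or more and 4245 bp for those of 3 to 4. In *Ezh2* KO it was at most 1624 bp, in a bin starting at a strength of 1.5, and 1020 bp for 2 to 2.5.

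The widest WT region was 169.2 kb wide (chr17:30765679-30934840, strength 7.29) and lay over *Dnahc8*, which encodes an axonemal dynein heavy chain. Of its bases, 82.3% were also inside *Ezh1/2* dKO regions and 17.3% inside *Ezh2* KO regions, so most of it was called without PRC2 activity too. The next 2 were 110.6 kb over *Vps13d*, a lipid transfer protein, and 106.5 kb over *Ubr4*, a ubiquitin ligase. Of the bases of these 2 regions, 0.689% and 0.0% lay in *Ezh2* KO regions. The 3 widest *Ezh2* KO regions were 46.2 kb over *Kbtbd5*, *Hhatl* and *Ccdc13* on chromosome 9, 43.8 kb outside the genes analysed on chromosome 13 and 43.5 kb in *Sdk1*, a synaptic adhesion molecule, on chromosome 5. WT regions held 0.0%, 2.69% and 2.83% of them.

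The 2 lists held largely different bases. Of the bases in WT regions, 8.78% were also in *Ezh2* KO regions, although *Ezh2* KO regions covered 19.9% of the length, which is 0.441 times the share of the length. The converse share was 6.68% of *Ezh2* KO bases in WT regions, which covered 15.1%. The overlap was smaller for stronger WT regions. Of the bases of the weakest 20% of WT regions 27.02% were in *Ezh2* KO regions, and of the strongest 20% the share was 3.16%. *Ezh2* KO regions overlapped the background lists more than they overlapped WT. On the 9 chromosomes that all 4 lists hold, 28.9% of *Ezh2* KO bases were in *Ezh1/2* dKO regions, which covered 10.99% of the length, and 29.4% were in *Ezh2* Y726D regions, which covered 12.6%. These shares are 2.63 and 2.34 times those of the length. For WT bases the shares were 13.9% and 18.0%, which is 1.26 and 1.43 times. How far the *Ezh2* KO list rests on the same background was not tested.

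To place the regions over genes, 16524 genes of the expression table with mm9 coordinates on the shared chromosomes were split by the mean WT normalised count. No-read genes (1025) had no read in either WT library. The remaining genes formed 3 classes of equal size, low (up to 20.9 counts, n = 5166), middle (up to 254.5, n = 5166) and high (n = 5167, median 560.3). In WT the mean percent of the gene body inside H3K27me1 regions went up with expression, from 5.79% ± 3.57 (SD over chromosomes) in no-read genes through 11.3% ± 3.13 in the low and 34.3% ± 6.08 in the middle class to 64.2% ± 7.66 in the high class. In *Ezh2* KO the order was opposite, with 38.6% ± 11.5, 33.7% ± 8.98, 12.3% ± 4.01 and 1.29% ± 0.6. No H3K27me1 at all was listed over 4427 of 5167 high genes in *Ezh2* KO (85.7%, 84.7 to 86.6), and over 250 of them in WT (4.84%).

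**Figure D2:**
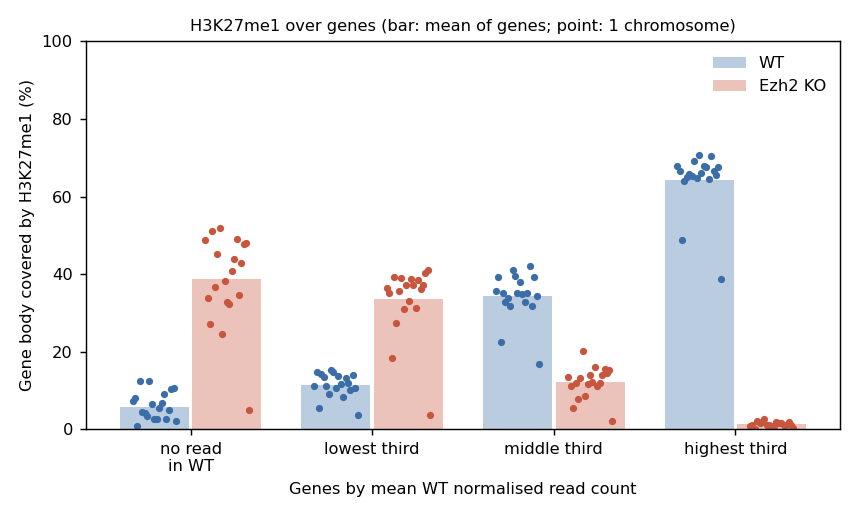
Percent of gene body inside H3K27me1 regions (y axis) for genes grouped by mean WT normalised read count (x axis) in WT (blue) and *Ezh2* KO (red). Bars are the mean over genes, points are the means of the 19 chromosomes. Coverage goes from 5.79% to 64.2% with expression in WT and from 38.6% to 1.29% in *Ezh2* KO.

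The difference between the lines was larger than the spread over chromosomes at both ends of expression. That spread does not measure variation between libraries. At high genes the difference *Ezh2* KO minus WT was −62.9 ± 7.38 points, with chromosome means from −69.7 on chromosome 18 to −38.5 on chromosome X, so *Ezh2* KO was lower on 19 of 19. No-read genes had 32.8 ± 10.55 points more, from 2.84 on chromosome X to 48.4 on chromosome 15, again with the same direction on 19 of 19. In the low class the mean was 22.4 ± 7.13 points higher and this held on 18, X being the exception at −0.1. The higher coverage of silent genes lay in weak regions. With regions of strength 2 or more the difference there was 0.883 points, higher on 10 of 19 chromosomes, whereas at high genes it was −47.6 points.

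A change of at least 25 points was used to count genes. Coverage was lower in *Ezh2* KO by at least 25 points for 7379 of 16524 genes, a share of 44.7%, and higher by as much for 3691, a share of 22.3%. Among high genes 4470 were lower (86.5%) and 19 higher (0.37%). Among no-read genes 37 were lower (3.61%) and 561 higher (54.7%). The 2 sets of well-covered genes hardly met. WT regions covered at least 50% of the body of 5751 genes and *Ezh2* KO regions that of 2353, and 39 genes were in both. That is 0.678% of the first set and 1.66% of the second, while 14.2% of all genes were covered to that extent in *Ezh2* KO. Of the 5751 genes, 4939 (85.9%) had no base in an *Ezh2* KO region.

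The differences also varied with gene length. High genes of 20 to 100 kb had 70.7% covered on average by WT and 1.05% by *Ezh2* KO regions (n = 2332), and those shorter than 5 kb had 37.7% and 1.0% (n = 553). Low genes of 20 to 100 kb had 8.59% and 37.0% (n = 1612). Low genes shorter than 5 kb had 18.1% and 23.9%, the smallest difference of the 16 combinations of class and length.

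Along the genes, WT H3K27me1 was low at the start and built up towards the end. In the 4614 high genes of at least 5 kb, coverage was 15.5% in the last 0.5 kb before the start and 17.4% in the first 5% of the body. It was 50.5% in the third of the 20 parts and 79.2% in the 18th, and was still 41.4% at 5 kb beyond the end. In *Ezh2* KO the same genes had between 0.986% and 1.9% in every part of the body. Coverage of their flanks was higher than that of the body, at 9.43% and 10.4% in the outermost windows on the 2 sides. No-read genes were covered at an even 36.8% to 42.8% along the body in *Ezh2* KO, without a dip at the start. Low genes had 25.2% in the 0.5 kb before the start and 36.3% in the second part of the body.

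**Figure D3:**
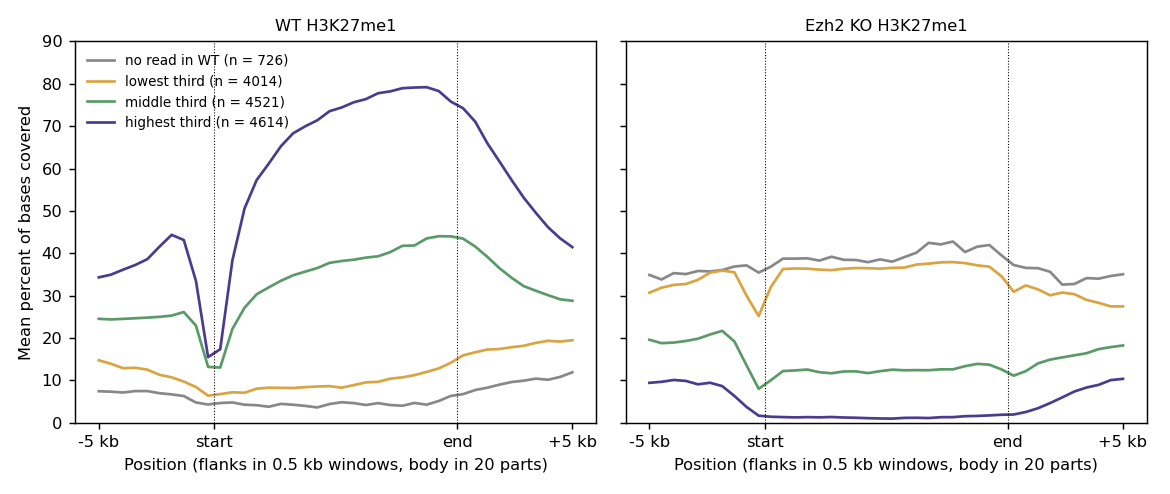
Mean percent of bases inside H3K27me1 regions (y axis) in 0.5 kb windows of the 5 kb flanks and 20 equal parts of the gene body (x axis) for genes of at least 5 kb in the 4 classes of WT expression, in WT (left) and *Ezh2* KO (right). The WT curve of the high class climbs from 17.4% to 79.2% within the body, and the *Ezh2* KO curve of the same class is at most 1.9% there.

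Regions themselves differed by the gene that held their midpoint. In WT, regions in high genes made up 15.1% of regions and 35.9% of bases, with a median width of 2076 bp and a strength of at least 2 in 28.2%. In *Ezh2* KO, 1.39% of regions and 1.11% of bases lay in high genes, with a median width of 796 bp and a strength of at least 2 in 2.18%. Low genes held 4.9% of WT bases and 20.5% of *Ezh2* KO bases. Of all bases in regions, 61.2% of those in WT and 36.8% of those in *Ezh2* KO were in protein-coding genes, which made up 37.7% of the length. Outside protein-coding genes, coverage was 9.42% in WT and 20.2% in *Ezh2* KO.

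The lines without PRC2 activity gave the level of regions called over the same classes. On the 9 chromosomes listed in all 4, *Ezh1/2* dKO regions covered 15.6% of the body of no-read genes and 8.5% of high genes, and *Ezh2* Y726D regions 22.6% and 15.8%. On these chromosomes *Ezh2* KO had 36.6% and 1.16%, and WT 5.38% and 62.5%. *Ezh2* KO coverage was therefore above both background lists at no-read genes and below both at high genes. WT was on the opposite side of both lists in these 2 classes.

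The genes named next were chosen by their coverage in these lists, so the values describe them and test nothing. Among 8268 protein-coding genes of at least 20 kb, 23 went from full coverage in WT to 0 in *Ezh2* KO. The 10 longest included *Ndc1* (a transmembrane nucleoporin), *Thoc1* (mRNA export), *Bms1* (ribosome biogenesis), *Wars* (tryptophanyl-tRNA synthetase), *Kif23* (a kinesin of cytokinesis), *Cops2* (COP9 signalosome), *Dnajc27* (a small GTPase with a J domain), *Atg14* (autophagy) and *Poc5* (centrioles). They were 27.3 to 48.6 kb long, and their mean WT count lay between 174 and 1344. For *Ndc1* a single WT region of 52655 bp with a strength of 2.76 held the gene, and *Bms1* lay in one of 39333 bp with a strength of 2.89. *Ndc1* RNA had 795 and 658 normalised counts in WT and 714 and 709 in *Ezh2* KO. These overlap. None of the 10 genes passed the RNA test.

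The 10 with the largest difference the other way included *Trim29*, a tripartite motif protein of epithelia, *Aspg* (an asparaginase), *Tgfbi* (an extracellular matrix protein), *Lingo1* (a neuronal receptor), *Lsp1* (an actin-binding protein of leukocytes), *Vipr1* (the receptor of vasoactive intestinal peptide), *Cd82* (a tetraspanin), *Myh6* (cardiac myosin heavy chain) and *Ky* (a muscle protein). Their coverage was 0.0% to 1.33% in WT and 91.8% to 100% in *Ezh2* KO. Of the 10, 9 were in the no-read or low class. The median of their mean WT counts was 3.45, and *Tgfbi* was the highest, with 68.03 and 112 counts in WT and 78.4 and 118 in *Ezh2* KO. *Trim29* had 0 counts in all 4 libraries. It lay in a region of 37755 bp with a strength of 1.90, and *Aspg* in one of 31674 bp with 1.89. For *Trim29* the *Ezh1/2* dKO regions covered 51.0% and the *Ezh2* Y726D regions 39.7%. Of the 10 genes, 6 could be tested for RNA and 0 passed.

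Both genes of the catalytic subunits belong to the genes with lower coverage, but their values need separate reading. *Ezh2* (chr6:47480273-47545340) was covered by 7 WT regions over 77.1% of its body, the widest 42737 bp, and by 0 *Ezh2* KO regions. The gene is deleted in the KO cells. The *Ezh1/2* dKO list, from cells labelled with the same gene deleted, held 2 regions over 0.962% of it, and the *Ezh2* Y726D list held 0. *Ezh1* (chr11:101052429-101087777) held 9 WT regions over 41.9% of its body and 0 *Ezh2* KO regions. The WT regions there were short, at most 3203 bp, and included the strongest of the whole list, with strengths up to 26.0. Of the 9, 8 overlapped an exon, and together they touched 19 of 21 merged exons. The same pattern was present in *Ezh1/2* dKO, with 10 regions that all overlapped an exon and strengths up to 20.9, and in *Ezh2* Y726D, with 9 regions and up to 10.55, although *Ezh1* is removed in both lines. It was also in the H3K27me2 list of *Ezh2* KO, with 10 regions, all on exons. What gives this exon pattern was not tested, and the value of *Ezh1* is not taken as H3K27me1 of the gene.

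Genes of known roles were examined by list. Lists were chosen with earlier results of these data known, so their counts describe the genes and are read against the shares of 44.7% lower and 22.3% higher for all genes. All 24 long, ubiquitously active genes had lower coverage in *Ezh2* KO by at least 25 points, with a median of 84.6% in WT and 0.0% in *Ezh2* KO. Their mean WT count was at least 377, which places them in the high class, of which 86.5% were lower. *Chd8*, a chromatin remodeler, had the largest difference, from 98.4% to 0.0%. *Rif1*, a regulator of replication timing, had the smallest, from 27.3% to 0.0%, and *Dnmt1*, the maintenance DNA methyltransferase, was near the median, from 86.7% to 0.0%. Of the 15 PRC2 subunits and H3K27 enzymes, 10 were lower and 1 was higher. The 10 include *Ezh2*, which is deleted, and *Ezh1*, whose value is set aside above. The scaffold subunit *Eed* went from 58.3% to 0.0% and the accessory subunit *Phf1* from 99.4% to 0.0%, although it is a 4.76 kb gene of the low class. *Phf19*, another accessory subunit, was the exception, at 0.0% in WT and 68.1% in *Ezh2* KO. It had a WT SUZ12 peak near its start and 10.7 and 1.93 counts in WT. *Ezh1/2* dKO regions covered 28.8% of *Phf19* and *Ezh2* Y726D regions 43.9%.

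The pluripotency and housekeeping lists had WT medians of 5.07% and 1.01%, below the 23.1% of all genes. The medians of their mean WT counts were 935 and 2641, both within the high class, of which 86.5% were lower. Of 23 pluripotency genes, 8 were lower, 0 were higher and 11 had no region in either list. *Nr5a2*, a nuclear receptor of 117 kb, went from 82.2% to 0.243%. *Esrrb*, a pluripotency factor with 2082 to 2497 counts in the 4 libraries, was the only member with more in *Ezh2* KO, with 18.7% in WT and 34.3% in *Ezh2* KO, a difference below 25 points. *Dppa5a* is 1.13 kb long and had 0.0% in both. Of 18 housekeeping genes, 5 were lower and 0 higher, and 9 had no region in either list. *Tbp*, the TATA-binding protein, went from 88.1% to 0.0%, whereas the short genes *Actb* and *Tubb5* had 0.0% in both. Their median length was 10.8 kb, against 95.4 kb for the long active genes.

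Developmental regulators had little H3K27me1 in WT. Of 22 measured, 0 were lower and 11 were higher, with a median of 0.0% in WT and 29.4% in *Ezh2* KO. The median of their mean WT counts was 1.44. Of all low genes 47.3% were higher by at least 25 points, and of all no-read genes 54.7%. *Dlx5*, a homeobox gene of limb and forebrain, went from 0.0% to 72.2%, *Lhx2*, a LIM homeobox gene, from 0.0% to 21.8%, and *Foxa2*, a factor of endoderm, had 0.0% in both. *Ezh1/2* dKO regions covered 73.6% of *Dlx5*, 20.2% of *Lhx2* and 21.3% of *Foxa2*. *Ezh2* Y726D regions covered 35.6% of *Lhx2* and 26.5% of *Foxa2*, and that list does not hold the chromosome of *Dlx5*. Of the 15 Polycomb loci that the study used as examples, chosen by it on these cells, 0 were lower and 4 higher, and 9 had no region in either list. *Fgfr3*, a growth factor receptor, went from 0.0% to 60.4%, and *Foxd4* had 0.0% in both. *Ezh1/2* dKO regions covered 36.2% of *Fgfr3* and 34.6% of *Foxd4*, and *Ezh2* Y726D regions covered 77.6% of *Fgfr3*. Of 15 long tissue-restricted genes, 1 was higher, *Nrxn3*, a synaptic neurexin of 1612 kb, from 1.76% to 27.5%. *Magi2*, a synaptic scaffold, went from 11.1% to 17.7%. *Ryr2*, the cardiac calcium release channel, went the other way, from 31.6% to 13.2%, and had 38.7 and 67.4 counts in WT and 22.0 and 32.9 in *Ezh2* KO (log2 fold change −0.90, limma adjusted p = 0.608).

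**Figure D4:**
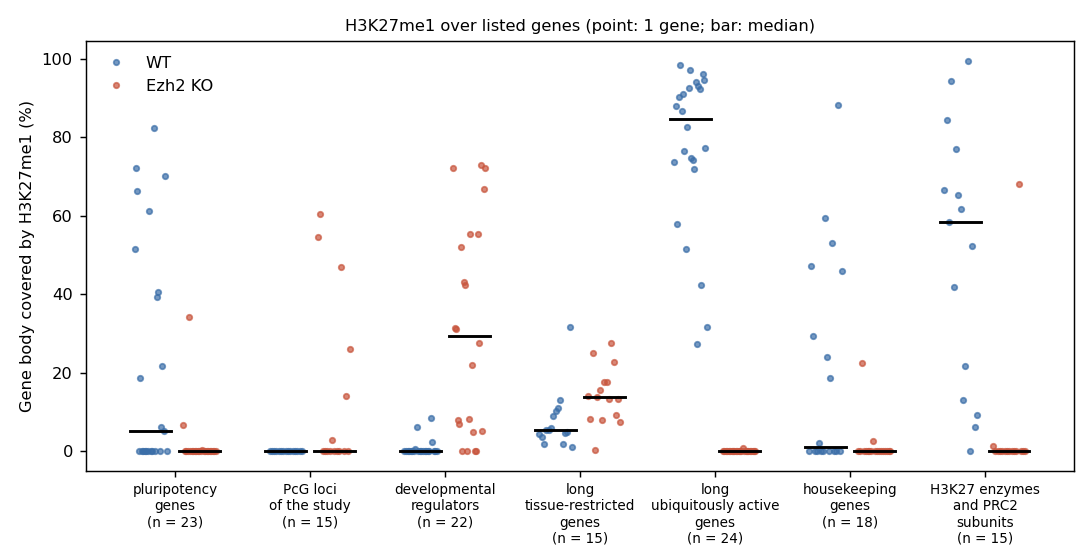
Percent of gene body inside H3K27me1 regions (y axis) for genes of 7 lists (x axis, n in parentheses), in WT (blue) and *Ezh2* KO (red). Points are genes and black bars medians. The 24 long active genes go from a median of 84.6% to 0.0%, and the 22 developmental regulators from 0.0% to 29.4%.

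The regions were also set against the peaks of other marks. WT H3K27me3 peaks (16143) had 0.118% of their bases in WT H3K27me1 regions and 46.0% in *Ezh2* KO regions, 2.31 times the share of the length, and *Ezh2* KO was higher than WT on 19 of 19 chromosomes. The background lists also held more of these peaks than their share of the length. On the chromosomes listed in all 4, the share of the peaks' bases was 46.4% for *Ezh2* KO (2.46 times the length), 21.7% for *Ezh1/2* dKO (1.97 times) and 41.4% for *Ezh2* Y726D (3.3 times). Where *Ezh2* KO cells no longer had an H3K27me3 peak (8118 peaks) *Ezh2* KO H3K27me1 covered 72.3% of the bases, and where they kept a peak (8025) it covered 34.5%. In 1 kb windows around the H3K27me3 peaks listed in both lines, *Ezh2* KO H3K27me1 was 35.05% at the centre and at most 49.2% beside it. For WT SUZ12 peaks the shares were 15.7% for 3952 that the *Ezh2* KO list lacked and 2.86% for 1217 that it shared. WT H3K27me1 covered 0.134% and 0.233% of them. Around the shared SUZ12 peaks *Ezh2* KO H3K27me1 was 2.82% at the centre and 49.6% in the window 10 to 11 kb before it. On the chromosomes listed in all 4, the share of WT SUZ12 bases was 10.03% for *Ezh2* KO regions, 13.2% for *Ezh1/2* dKO and 40.1% for *Ezh2* Y726D.

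**Figure D5:**
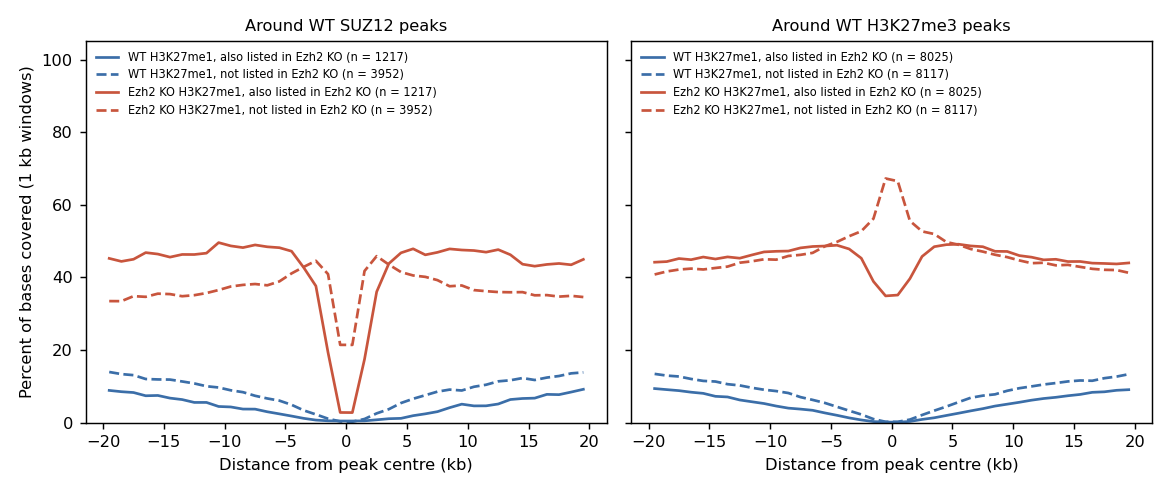
Percent of bases inside H3K27me1 regions (y axis) in 1 kb windows within 20 kb of the centre of WT SUZ12 peaks (left) and WT H3K27me3 peaks (right), for WT (blue) and *Ezh2* KO (red). Solid lines are peaks that *Ezh2* KO also lists and dashed lines those it does not. WT is near 0 at every centre. *Ezh2* KO has 35.05% at the centre of the H3K27me3 peaks it also lists and 66.9% at those it does not list.

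H3K27me2 and H3K27me1 lay largely together in *Ezh2* KO. Of the *Ezh2* KO H3K27me2 bases, 65.5% were in *Ezh2* KO H3K27me1 regions and 2.72% in WT H3K27me1 regions. Read the other way, 53.2% of *Ezh2* KO H3K27me1 bases were in H3K27me2 regions of the same line, which covered 16.2% of the length. The background lists also held more of the *Ezh2* KO H3K27me2 bases than their share of the length. On the chromosomes listed in all 4, *Ezh1/2* dKO regions held 27.9% of these bases (2.54 times the length). *Ezh2* Y726D regions held 29.2% (2.325 times), and the ratio for *Ezh2* KO H3K27me1 regions there was 3.45. Of the WT H3K27me2 bases, 28.9% were in WT H3K27me1 regions (1.91 times the length) and 31.6% in *Ezh2* KO regions (1.59 times), with *Ezh2* KO higher on 13 of 19 chromosomes. Both background lists held WT H3K27me2 at a higher ratio to their length. Where all 4 lists hold the chromosome, *Ezh1/2* dKO regions stood at 2.23 times and *Ezh2* Y726D regions at 2.38 times. The ratios there were 1.97 for WT and 1.71 for *Ezh2* KO. *Ezh2* KO H3K27ac peaks (24565) had 0.666% of their bases in *Ezh2* KO H3K27me1 regions and 25.6% in WT regions, with *Ezh2* KO lower on 19 of 19 chromosomes. The WT share lay between those of the background lists. On the chromosomes listed in all 4, WT regions held 24.8% of the peaks' bases (1.70 times the length). *Ezh2* Y726D regions held 30.3% (2.41 times), and the share for *Ezh1/2* dKO was 8.53% (0.776 times). *Ezh2* KO regions, at 0.726%, were below both background lists.

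The 2679 genes with WT SUZ12 at most 5 kb from their start were covered to 9.18% by WT and to 36.2% by *Ezh2* KO regions on average, and 1401 were higher by at least 25 points (52.3%). Genes without such a peak (13845) had 39.6% and 13.5%. Genes without the peak also had more in *Ezh2* KO when silent, as low genes without a peak went from 14.1% to 30.1% (n = 3674) and no-read genes without one from 7.16% to 39.1% (n = 755). Among the low genes with a peak the mean went from 4.31% to 42.4% (n = 1492).

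The change in coverage was set beside the RNA of the same genes. Of 13872 genes tested, 13 were higher in *Ezh2* KO (0.0937%) and 43 lower (0.31%) at an adjusted p below 0.1 and a log2 fold change of at least 1 (limma, 2 libraries per line), and 1225 had an unadjusted p below 0.05. Coverage was measured for 12860 of the tested genes, of which 11 were higher (0.0855%) and 38 lower (0.2955%). The groups below are parts of these. Of 7105 tested genes with lower coverage, 0 had higher RNA and 6 had lower RNA (0.0844%), and *Ezh2* itself is 1 of the 6. Of the 7105, 427 had an unadjusted p below 0.05. Over all genes edgeR gave 7 higher and DESeq2 45. Of 1807 tested genes with higher coverage, 1 had higher and 8 had lower RNA (0.443%). Of the 3948 others, 10 had higher and 24 lower RNA. The median log2 fold change was −0.02 for genes with lower coverage, −0.10 for those with higher coverage and 0.03 for the others, against −0.01 for all. The median WT and *Ezh2* KO counts of the genes with lower coverage were 342 and 340. Those of the 3691 genes with higher coverage were 3.26 and 2.54, and 1807 of the 3691 were tested. Such low counts limit what could be called there. The number of calls rests on single libraries, as leaving 1 out gave 0 to 65 higher and 6 to 88 lower genes, the most without WT replicate 2 and the fewest without *Ezh2* KO replicate 2.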

How the data were processed

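Region and peak lists are MACS2 output deposited by the authors, who aligned reads uniquely to mm9 with Bowtie and removed duplicates with Picard. In the deposited H3K27me1 lists a fold (ratio) column, a −log10 p-value column (the strength used here) and a −log10 q-value column describe each broad region, and inner segments are its narrower blocks. Histone ChIP held Drosophila spike-in chromatin, and whether it entered the calls is not given in the sources used here. The ChIP depth is unknown. RNA values are SMART-seq2 read counts that the authors divided by DESeq2 size factors (a deposited normalised signal). Whole reads were recovered for 100% of values (tolerance 0.001), 3604123 to 5181553 per library.

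Regions of a list were merged with Python 3.11.15 (pandas, scipy) and intersected with gene bodies of GENCODE M1 (mm9). Of 18055 genes in the table, 16570 matched by symbol and 854 by synonym, and 631 were left out. RNA was tested with limma 3.58.1 (R 4.3.3) on log2(normalised count + 1), with a mean of at least 5, all 8 libraries in the fit and Benjamini-Hochberg adjustment. Interval and RNA steps were checked on simulated data. The study calls its replicates biological in its account of ChIP-seq, and the labels do not say what separates the 2 RNA libraries of a line, so p-values measure the spread between libraries. Named genes were the 10 protein-coding genes of at least 20 kb with the largest change each way, the members of each list with the largest fall, the largest rise and the change nearest the median, the 3 widest regions per line, *Ezh1* and *Ezh2*; some genes that this rule names are not reported here. Members and lists were chosen with earlier results of these data known. Alternatives covered thresholds, equal list sizes, joining, inner segments, chromosome X, gene classes and RNA tools (edgeR 4.0.16 and DESeq2 1.42.0 on recovered reads).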

Additional observations from a re-analysis of the deposited data

Results flagged for a closer look

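The WT list held 5563 H3K27me1 regions on chromosome 8 and 121 on chromosome Y, which the *Ezh2* KO list does not hold and the comparisons above do not use. They drew attention because the signal lies in data outside those comparisons. The regions covered 8.13% of chromosome 8, with a median width of 980 bp and a median strength of 1.54, and 1.37% of chromosome Y, with 1024 bp and 1.47. How these chromosomes compare between the lines was not analysed here.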

How the results depend on the processing

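Values with no test were compared with the SD over chromosomes of the same value. The ratio of N50 (*Ezh2* KO to WT, 0.578) was 0.286 with regions of strength 2 or more, 0.774 with equal numbers of regions and 0.759 with equal covered bases. The difference of median strength (−0.044) was −0.285, 0.122 and 0.11 in the same order, so it turned around for lists of equal size. The ratio of covered bases (1.31) was 0.087 at strength 2, 0.974 with equal numbers of regions and 0.0079 with inner segments, below 1 in each. Equal covered bases leave no value for it. The share of WT bases in *Ezh2* KO regions (8.78%) was 0.139% at strength 2, 5.61% with equal regions, 5.8% with equal bases and 0.0053% with inner segments. The difference at high genes (−62.9 points) was −47.6 at strength 2 and −2.24 with inner segments. That at no-read genes (32.8) was 0.883 at strength 2 and −0.203 with inner segments, of which *Ezh2* KO had 234. In the remaining alternatives these values moved by less than the SD, joining of regions and chromosome X included. Of 342 values of the 49 named genes, 285 moved by less than 25 points. For the 37 genes that changed by at least 25 points these were 202 of 259, and 0 turned around. With inner segments 37 of the 49 genes moved by at least 25 points, and with regions of strength 2 or more 17 did.

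RNA calls (13 higher, 43 lower) were 7 and 28 without a filter, 25 lower after quantile normalisation, 7 and 23 by edgeR and 45 and 99 by DESeq2. Leaving out 1 library gave 0 to 65 higher and 6 to 88 lower. Without WT replicate 2 the counts were 65 and 88, without WT replicate 1 they were 6 and 10, without *Ezh2* KO replicate 1 they were 3 and 18, and without *Ezh2* KO replicate 2 they were 0 and 6. The lone library is assumed to vary like the other groups. The replicate numbers did not pair the libraries (r of deviations −0.409 to 0.288), and the replicate block gave 9 higher and 25 lower genes. The cause of these changes was not tested. The unknown ChIP depth limits every comparison of region number and strength.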

Other observations

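The 39 genes covered by at least 50% in both lines were mostly short, with a median length of 1.94 kb. Of these, 11 lay within 146.5 kb of chromosome 12 (chr12:110827404-110973910), namely *Rtl1*, a retrotransposon-derived imprinted gene, and 10 miRNA genes such as *Mir370* and *Mir411* of the same imprinted cluster. WT regions covered 90.1% of that stretch and *Ezh2* KO regions 23.6%, and the miRNA genes lay inside regions of both lists. Another 5 were olfactory receptor genes. These genes were picked after their values were seen, and 2 of the 39 were in the high class, *Slc39a4* (a zinc transporter, 83.6% and 50.7%) and *Sapcd2* (53.2% and 70.0%).

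Among the chromosomes compared, chromosome X had the lowest coverage in all 4 lists. WT H3K27me1 regions covered 4.74% of it, those of *Ezh2* KO 1.05%, and the 2 background lists 0.231% (*Ezh1/2* dKO) and 0.237% (*Ezh2* Y726D), all below the shares of the whole lists. The high genes of the X were covered to 38.8% by WT and to 0.28% by *Ezh2* KO regions, so the lower coverage held there. Its no-read genes had 2.22% and 5.06%.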
